A study of Mus musculus with 18 samples.

Results

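GFI-Ptch and NG-Ptch are labelled subtypes of medulloblastoma, a tumour of the cerebellum, in "Ptch" mice, and the samples compared were 4 of each, chosen by group name from the 18 arrays of the study. Total RNA was extracted with Trizol, copied into biotin-labelled cDNA and read on Affymetrix mouse Gene ST 1.0 arrays, 1 array a sample. The series set out to profile the molecular differences among subtypes of these tumours.

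NG-Ptch comprised replicates 1, 2, 4 and 5, and GFI-Ptch comprised replicates 1 to 4. The labels give the letters NG and GFI without saying what they stand for, and state no strain, age, treatment or allele beyond "Ptch". Replicate 4 of GFI-Ptch differs from the rest: its label says that it progressed from X4200 and that its host was an NSG female. NSG mice are immunodeficient animals without mature lymphocytes or natural killer cells. That array is called the transplanted tumour here, the other 3 are called the primary GFI-Ptch tumours only to set them apart from it, and the main results are given with and without it. The labels do not say that replicates came from separate animals, so the p-values cover only the variation among these arrays, which may be technical. Each array is called a tumour here for short.

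Medulloblastomas of Ptch mice arise from granule neuron progenitors, the dividing cells that build the granule layer of the cerebellum under the mitogen Sonic hedgehog (Shh). Ptch1 is the Shh receptor and restrains Smo, and loss of that restraint lets Gli transcription factors drive the target genes without ligand. Granule neuron progenitors leave the cycle, turn on Neurod1 and neurofilament genes, and become granule neurons. Tumours also hold astrocytes, oligodendrocyte progenitors, microglia, vessels and remnants of the surrounding cerebellum.

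Levels are the deposited log2 values of 1 probe set per gene, so a difference of 1 is a 2-fold change, and levels are compared between tumours and never between genes. Where 4 levels are given for GFI-Ptch they stand in the order of replicates 1, 2, 3 and 4, so that the last is the transplanted tumour; 3 levels are the primary tumours alone. NG-Ptch levels stand in the order of replicates 1, 2, 4 and 5. All 8 tumours had high levels of the granule neuron progenitor genes Atoh1 and Zic1. Atoh1, the transcription factor that defines these cells, was at 12.45, 12.24, 12.81 and 12.01 in GFI-Ptch and 12.34, 11.78, 12.51 and 12.06 in NG-Ptch, and Zic1, a transcription factor of the same cells, lay between 12.78 and 12.97 in all 8. Both groups thus carried these markers of their labelled tumour type.

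Across all 19938 genes, NG-Ptch arrays correlated with each other at 0.993 to 0.996 and the primary GFI-Ptch arrays at 0.988 to 0.992. The primary GFI-Ptch arrays correlated with NG-Ptch at 0.987 to 0.993, a range that overlaps the one within their own group. The transplanted tumour stood further off, at 0.970 to 0.975 with the other GFI-Ptch arrays and at 0.974 to 0.975 with NG-Ptch. The median SD of a gene was 0.10 in NG-Ptch, 0.09 in the primary GFI-Ptch tumours and 0.14 in all 4 GFI-Ptch tumours. The gender labels give F for NG-Ptch replicate 1 and for GFI-Ptch replicates 1 and 2, M for GFI-Ptch replicates 3 and 4, and ND for the other NG-Ptch tumours. Y-linked transcripts were present in GFI-Ptch replicate 3 alone, where Eif2s3y was at 10.44 against 4.97 to 5.07 in the other 7. The transplanted tumour, labelled M and grown in a female host, had Eif2s3y at 4.98 and Xist, the transcript of the inactive X chromosome, at 9.20. Xist was at 6.63 in GFI-Ptch replicate 3 and at 10.74 to 13.39 in the rest.

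The comparison asked which genes distinguish the GFI and NG subtypes. Genes of axons and granule neurons, such as Nefl (a difference of -1.72, SE 0.49), and genes of oligodendrocyte progenitors, such as Gpr17 (-1.31, SE 0.39), had lower levels in GFI-Ptch. Genes induced by interferon, such as Rsad2 (0.74, SE 0.23), had higher levels, most of all in the transplanted tumour. Without that tumour the change of Rsad2 was 0.41. In the mean of the interferon genes the primary GFI-Ptch tumours overlapped with NG-Ptch. Gli1, Ptch1 and the proliferation gene Mki67 overlapped between the groups. None of these passed the test over all genes, and the genes that did were Mgat5b, Adamtsl3, Ttyh2, Rac3 and Trpv2, which were lower in GFI-Ptch when the transplanted tumour was left out.

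With all 4 GFI-Ptch tumours, limma called 0 of 19938 genes (0%) at a Benjamini-Hochberg adjusted p under 0.05, and 1701 genes (8.53%) had an unadjusted p under 0.05, 718 of them higher and 983 lower in GFI-Ptch. Without the transplanted tumour limma called 5 genes (0.0251%), all lower in GFI-Ptch, and 2649 (13.3%) had an unadjusted p under 0.05, 1443 higher and 1206 lower. The median change over all genes was 0.02 in either fit. Apart from these 5 genes, the differences given for single genes are measured values that did not pass the test.

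Mgat5b, which encodes a brain N-acetylglucosaminyltransferase that branches O-mannosyl glycans, had the smallest adjusted p. Its level (probe set 10382866) was 9.47, 9.56 and 9.62 in the primary GFI-Ptch tumours and 10.16, 10.18, 10.16 and 10.28 in NG-Ptch. It fell by 0.65 (SE 0.06, n = 3 and 4, adjusted p = 0.000313 by limma with Benjamini-Hochberg adjustment). The transplanted tumour, at 10.21, lay inside the NG-Ptch range, and with it in the group the change was -0.48 (adjusted p = 0.197 by limma).

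Adamtsl3, a secreted protein of the ADAMTS-like family, was at 7.49, 7.79 and 7.71 in the primary GFI-Ptch tumours and 8.85, 8.71, 8.38 and 8.69 in NG-Ptch (probe set 10554599). It fell by 0.996 (SE 0.14, adjusted p = 0.0391 by limma without the transplanted tumour). At 8.33 the transplanted tumour was the highest of its group but still below every NG-Ptch tumour. Ttyh2, a membrane protein of the tweety family, was at 10.16, 9.92 and 10.30 against 10.88, 10.78, 10.89 and 10.79, a fall of 0.71 (SE 0.11, adjusted p = 0.0459 by limma). The transplanted tumour, at 10.73, lay just under the lowest NG-Ptch tumour.

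Rac3, a small GTPase of developing neurons, was at 7.88, 8.08, 7.76 and 8.07 in GFI-Ptch and 8.48, 8.54, 8.57 and 8.42 in NG-Ptch. It fell by 0.60 without the transplanted tumour (SE 0.09, adjusted p = 0.0459 by limma), and its change was -0.56 with it (adjusted p = 0.0579). All 4 GFI-Ptch tumours were below all 4 NG-Ptch tumours. The last of the 5, the cation channel Trpv2, fell by 0.25 without the transplanted tumour (SE 0.04, adjusted p = 0.0481 by limma), from 7.94 to 7.98 in NG-Ptch to 7.68 to 7.75. With that tumour, at 7.91, its change was -0.20 (adjusted p = 0.19 by limma).

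These 5 calls depended on which arrays and which terms were in the fit. Of the 5, all remained called after median centring, 4 after quantile normalization and 1, Mgat5b, with the gender label in the model. That label was F, M or ND, and ND counted as a level of its own. Most NG-Ptch tumours and no GFI-Ptch tumour had ND, so the label partly coincided with the group. When the 7 arrays of these groups were fitted alone, limma called 0 genes, 3152 had an unadjusted p under 0.05, and Mgat5b had an adjusted p of 0.0747. Without NG-Ptch replicate 1, 2, 4 or 5 the counts were 2, 1, 2 and 1, and without GFI-Ptch replicate 1, 2 or 3 they were 1, 9 and 19. Mgat5b remained called in each of these 7 fits. With all 4 GFI-Ptch tumours, leaving out GFI-Ptch replicate 2 gave 8 calls.

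With all 4 tumours the lowest adjusted p, 0.0579, was shared by Rac3, Zdhhc2, Sh3bp4 and Stard10, all with lower values in GFI-Ptch. Zdhhc2, which attaches palmitate to membrane proteins, was at 8.58, 9.10, 8.43 and 8.86 in GFI-Ptch and 9.86, 9.98, 9.80 and 9.84 in NG-Ptch, a difference of -1.12 (SE 0.18) with and -1.17 (SE 0.19) without the transplanted tumour. Every GFI-Ptch tumour lay below every NG-Ptch tumour. The lipid transfer protein gene Stard10 differed by -0.997 (SE 0.16) and Sh3bp4, which acts in endocytosis, by -0.64 (SE 0.10), again with no overlap. They were -0.91 and -0.55 without the transplanted tumour.

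Separation of the arrays was also counted gene by gene, without a test. In 968 genes (4.86%) the 4 GFI-Ptch and 4 NG-Ptch levels did not overlap, with GFI-Ptch above in 409 (2.05%) and below in 559 (2.8%). Of these, 4 (0.0201%) were higher by 1 or more and 35 (0.176%) lower by 1 or more. After quantile normalization the counts were 235 above and 668 below, and after centring each array on its median 160 above and 839 below, so the split between directions moved with the scaling. Without the transplanted tumour, 1733 genes (8.69%) lay above and 1354 (6.79%) below in a comparison of 3 with 4 arrays, which separates more easily, and 3 (0.015%) were higher and 33 (0.166%) lower by 1 or more.

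The 10 largest decreases among genes without overlap held several genes of neurons and glia. Vxn, which promotes neural differentiation, differed by -1.76 (SE 0.43), the GABA-A receptor subunit gene Gabra3 by -1.69 (SE 0.39), and Car10, a catalytically inactive carbonic anhydrase relative of neurons, by -1.66 (SE 0.43). These differences were -1.41, -1.31 and -1.15 without the transplanted tumour. Rlbp1, a retinaldehyde-binding protein of glia, was at 7.38, 8.16, 6.89 and 6.58 in GFI-Ptch and 8.94, 8.98, 9.26 and 8.44 in NG-Ptch. Its difference was -1.65 with the transplanted tumour and -1.42 without it. Every GFI-Ptch level was below the lowest NG-Ptch one, yet the GFI-Ptch tumours spanned a wider range.

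Il16, which encodes the precursor of a cytokine and has a neuronal form, was at 7.97, 8.18, 8.73 and 8.39 in GFI-Ptch and 9.75, 9.92, 9.29 and 9.97 in NG-Ptch. Its difference was about the same with and without the transplanted tumour, -1.42 and -1.44. Dock3, a neuronal activator of Rac GTPases, was at 7.65, 8.74 and 8.62 in the primary tumours against 10.36, 10.18, 10.18 and 10.10 in NG-Ptch, a difference of -1.87, and the transplanted tumour at 9.81 lay much closer to NG-Ptch. Dnajc15, a mitochondrial co-chaperone, was at 7.94, 7.68, 7.23 and 6.82 in GFI-Ptch and 8.62, 9.72, 8.57 and 9.32 in NG-Ptch, a difference of -1.64 with and -1.44 without the transplanted tumour. Lrrtm3, a synaptic adhesion gene, differed by -1.51 with the transplanted tumour and by -0.85 without it.

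**Figure D1:**
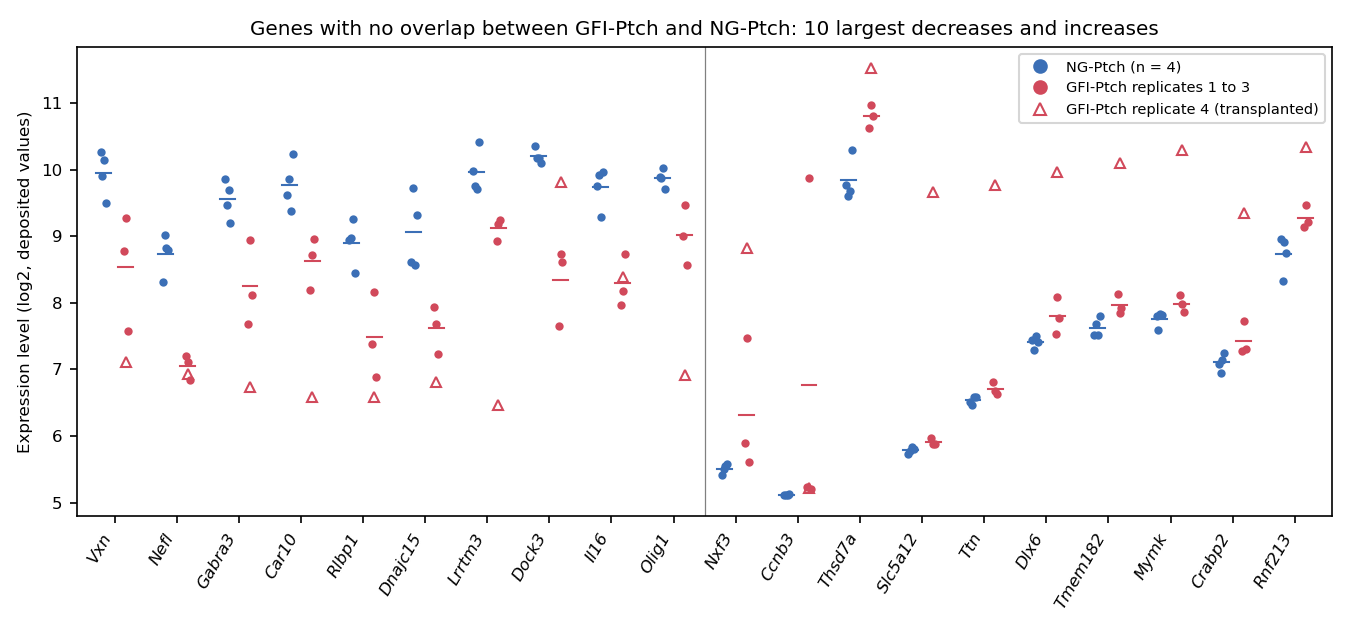
Deposited log2 levels (vertical axis) of the 10 genes with the largest decreases (left of the line) and the 10 with the largest increases (right) among genes whose 4 GFI-Ptch and 4 NG-Ptch arrays did not overlap; circles are arrays, the open triangle is the transplanted tumour, and short lines are means of NG-Ptch and of GFI-Ptch replicates 1 to 3. On the left all GFI-Ptch arrays sit below NG-Ptch, as for Nefl, while on the right the triangle stands far above the other arrays in several genes, such as Slc5a12 at 9.66 against 5.88 to 5.98 in the other GFI-Ptch tumours.

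The 10 largest increases rested to differing degrees on the transplanted tumour. Thsd7a, a membrane thrombospondin-domain protein, was at 10.63, 10.97, 10.80 and 11.52 in GFI-Ptch and 9.77, 9.60, 9.69 and 10.30 in NG-Ptch, a difference of 1.14 with and 0.96 without the transplanted tumour. Every GFI-Ptch tumour was above the highest NG-Ptch tumour. For Slc5a12, Ttn, Dlx6, Tmem182, Mymk and Crabp2 the differences of 0.80 to 1.06 with all 4 tumours came to 0.12 to 0.39 without the transplanted one. Nxf3, of the RNA export factor family, differed by 1.44 with it and 0.81 without it, and Rnf213, a large ubiquitin ligase, by 0.80 and 0.53. Ccnb3, a cyclin of germ cells, was at 9.87 in GFI-Ptch replicate 2 and at 5.12 to 5.23 in the other 7 tumours, and its difference of 1.26 with and 1.65 without the transplanted tumour became 0.10 when GFI-Ptch replicate 2 was left out.

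Without the transplanted tumour the largest decreases without overlap began with Mtx2, which encodes a mitochondrial outer membrane protein. It was at 6.68, 7.08, 6.31 and 10.03 in GFI-Ptch and 7.31, 9.43, 9.71 and 8.62 in NG-Ptch. Bex1, a small X-linked gene of neurons, was at 6.35, 6.97, 6.01 and 10.12 in GFI-Ptch and 7.23, 8.85, 8.52 and 8.72 in NG-Ptch. In both genes the transplanted tumour was the highest of all 8 and NG-Ptch replicate 1 was the lowest of its group, close to the primary GFI-Ptch tumours. Syt14, of the synaptotagmin family, differed by -2.06 (SE 0.62) and Nipsnap1, a mitochondrial protein gene, by -1.73 (SE 0.31) without the transplanted tumour, and the galanin receptor gene Galr1 by -1.43.

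The largest increases without the transplanted tumour were Ccnb3 (above), the keratin gene Krt12 and the ephrin receptor gene Epha3. Krt12 was at 10.35, 9.08 and 9.88 against 8.11, 8.16, 8.53 and 8.72 in NG-Ptch, a difference of 1.38 (SE 0.37), with the transplanted tumour at 7.76. Epha3 was at 10.37, 10.06 and 10.03 against 9.35, 9.44, 8.78 and 9.13, a difference of 0.98 (SE 0.65), and at 6.83 in the transplanted tumour. In both genes the transplanted tumour lay below every NG-Ptch tumour. Gdf10, a relative of bone morphogenetic proteins, differed by 0.94, the eosinophil chemokine gene Ccl11 by 0.81, and Gpat2, Krt20 and Mpzl2 by 0.76 to 0.91. Ccl11 was the only one of these whose 4 GFI-Ptch levels, 9.53, 9.41 and 8.56 and 8.47 in the transplanted tumour, were all above the NG-Ptch range of 8.32 to 8.41, apart from Ccnb3, Nxf3 and Thsd7a.

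Genes of the neuronal lineage were mostly lower in GFI-Ptch. Of 19 measured genes of differentiated neurons, 17 had a change below 0, with a median of -0.34 against 0.02 over all genes, and 4 lay below NG-Ptch without overlap, where 2.8% of all genes did. Without the transplanted tumour 18 were below 0, with a median of -0.33, and 5 lay below NG-Ptch without overlap, where 6.79% of all genes did. None was called over all genes, and 5 had an unadjusted p under 0.05 and a lower value with the transplanted tumour (4.93% of all genes) and 4 without it (6.05% of all genes). With the gender label modelled, ND included as a level, the median was -0.68, which is not a value adjusted for sex. In these bulk samples fewer cells of a type and less RNA per cell cannot be told apart.

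Nefl, the light chain of the neurofilaments that fill axons, was at 7.21, 7.11, 6.85 and 6.92 in GFI-Ptch and 8.32, 9.02, 8.82 and 8.79 in NG-Ptch. The groups were apart by more than 1, and the difference was -1.72 (SE 0.49, adjusted p = 0.286 by limma) with and -1.68 without the transplanted tumour. The medium chain gene Nefm, on the same chromosome, 14, was at 6.50, 6.50, 6.41 and 6.41 in GFI-Ptch and 6.75, 7.09, 7.17 and 7.18 in NG-Ptch, and the heavy chain gene Nefh overlapped, at 7.74 to 7.79 in the primary GFI-Ptch and 7.56 to 7.76 in NG-Ptch tumours. Nefl and Nefm thus separated the groups, and Nefh did not.

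Fat2, a giant cadherin of granule cells, was at 8.34, 8.65, 8.89 and 8.86 in GFI-Ptch and 9.76, 9.52, 9.49 and 10.04 in NG-Ptch, a difference of -1.02 (SE 0.29) with and -1.07 (SE 0.32) without the transplanted tumour. Cbln1, which granule cells secrete to organise their synapses with Purkinje cells, was at 10.10, 10.14, 10.34 and 9.83 in GFI-Ptch and 10.93, 10.44, 10.84 and 10.53 in NG-Ptch, a difference of -0.58 (SE 0.14) with and -0.49 (SE 0.14) without the transplanted tumour. Neither overlapped between groups. Mature granule neuron genes varied inside NG-Ptch: the GABA-A receptor subunit gene Gabra6 was at 9.41, 6.73, 8.59 and 6.75 there, and Cbln3 at 9.59, 7.51, 9.53 and 7.33. Replicates 1 and 4 were thus the high ones for both, and all 4 GFI-Ptch tumours lay between 6.34 and 7.68 for Gabra6. Pan-neuronal genes such as Map2, Snap25 and Stmn2 overlapped, with changes of -0.08, -0.20 and -0.34 with and -0.05, -0.05 and -0.11 without the transplanted tumour.

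Of the 12 genes of granule neuron progenitors, 2 lay below NG-Ptch without overlap (2.8% of all genes) and none above (2.05% of all genes). Neurod1, which drives granule cell differentiation, was at 12.31, 12.10, 12.29 and 11.96 in GFI-Ptch and 12.61, 12.72, 12.47 and 12.80 in NG-Ptch, a difference of -0.48 (SE 0.11) with and -0.41 (SE 0.11) without the transplanted tumour. Tlx3, a homeobox factor, was at 7.97, 7.99, 8.17 and 8.15 in GFI-Ptch and 8.42, 9.45, 8.72 and 8.63 in NG-Ptch, a difference of -0.74 (SE 0.16) with and -0.76 (SE 0.17) without the transplanted tumour. Both had all GFI-Ptch tumours lower, whereas Atoh1 and Barhl1, which act earlier, overlapped with changes of 0.21 and 0.11. In the comparison without the transplanted tumour Cntn2, an axonal adhesion molecule of newborn granule neurons, also lay below without overlap, at 10.33, 10.92 and 10.70 against 11.24, 11.74, 11.15 and 11.73, where 6.79% of all genes did, and Barhl1 above, at 11.70, 11.63 and 11.58 against 11.46, 11.24, 11.55 and 11.34. With 8.69% of all genes above in that comparison, 1 of 12 was near the background. The mean of the 12 genes was 11.27, 11.43, 11.35 and 11.26 in GFI-Ptch and 11.45, 11.54, 11.54 and 11.57 in NG-Ptch.

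Genes of oligodendrocyte progenitors, the glial precursors marked by Olig2, Pdgfra and the NG2 proteoglycan gene Cspg4, had lower levels in GFI-Ptch. All 15 measured members had a change below 0, with a median of -0.81 with the transplanted tumour and -0.49 without it. Changes were above 0 in 58.6% and 57.7% of all genes. Of the 15, 11 had an unadjusted p under 0.05 and a lower value, where 4.93% of all genes did, and without the transplanted tumour 7 did, where 6.05% of all genes did. None was called over all genes in either fit, and the median was -0.35 with the gender label (F, M or ND) in the model.

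The same 5 members, Olig1, Olig2, Pdgfra, Cspg4 and Gpr17, lay below NG-Ptch without overlap with the transplanted tumour (2.8% of all genes) and without it (6.79%). The mean over the 15 genes was 9.34, 9.57, 8.76 and 7.87 in GFI-Ptch and 9.81, 9.69, 9.89 and 9.54 in NG-Ptch, so GFI-Ptch replicate 2 lay above the lowest NG-Ptch tumour. Gpr17, a receptor of progenitors about to differentiate, was at 8.08, 8.48, 7.51 and 7.07 in GFI-Ptch and 9.40, 8.92, 9.46 and 8.57 in NG-Ptch, differences of -1.31 with and -1.07 without the transplanted tumour. Olig1, a lineage transcription factor, was at 9.01, 9.47, 8.57 and 6.92 in GFI-Ptch and 9.88, 9.87, 10.03 and 9.71 in NG-Ptch, differences of -1.38 and -0.86. Its partner Olig2 was at 9.57, 9.85, 9.37 and 8.79 in GFI-Ptch and 9.99, 10.14, 10.46 and 10.15 in NG-Ptch, differences of -0.79 and -0.59. In all 3 the transplanted tumour was the lowest, and GFI-Ptch replicate 3 the lowest of the primary tumours.

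Pdgfra, the receptor for the growth factor that keeps these cells dividing, was at 11.85, 11.75, 11.53 and 9.26 in GFI-Ptch and 12.34, 12.09, 12.20 and 11.85 in NG-Ptch. Most of its difference of -1.02 came with the transplanted tumour, since it was -0.41 without it, and replicate 1 of GFI-Ptch reached the lowest NG-Ptch tumour to the second decimal. Cspg4 was at 8.50, 8.96, 7.94 and 7.93 in GFI-Ptch and 9.01, 9.03, 9.53 and 8.98 in NG-Ptch, a difference of -0.81 with and -0.67 without the transplanted tumour. Lhfpl3, Scrg1 and Ptprz1, further progenitor genes, had differences of -1.33, -1.34 and -1.29 that became -0.85, -0.75 and -0.46 without the transplanted tumour, and all overlapped. Of 12 genes of mature oligodendrocytes 8 had a change above 0, with a median of 0.11 that was -0.11 without GFI-Ptch replicate 1, and Mbp, of myelin, was at 10.33, 9.60, 9.65 and 8.94 in GFI-Ptch and 10.14, 9.15, 9.75 and 9.04 in NG-Ptch.

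Astrocyte levels varied widely inside GFI-Ptch. The mean of 14 astrocyte genes was 10.65, 10.22, 9.49 and 8.74 in GFI-Ptch and 10.14, 10.09, 10.16 and 9.98 in NG-Ptch, so replicate 1 was above and replicate 3 and the transplanted tumour below all NG-Ptch tumours. No astrocyte or neural stem cell gene separated the groups, with or without the transplanted tumour. Sox2, a stem cell transcription factor, was at 9.26, 8.98, 7.47 and 6.95 in GFI-Ptch and 9.58, 9.25, 9.14 and 9.31 in NG-Ptch, and Fabp7, a fatty acid-binding protein of radial glia, at 12.97, 13.25, 11.86 and 11.03 in GFI-Ptch and 13.31, 13.38, 13.10 and 13.33 in NG-Ptch. GFI-Ptch replicate 3 and the transplanted tumour were low for both, whereas Nes, the intermediate filament of stem cells, was at 7.92, 9.35, 9.65 and 9.86 in GFI-Ptch and 10.21, 9.23, 8.63 and 8.91 in NG-Ptch, and Prom1, Msi1 and Notch1 were highest in the transplanted tumour. Microglia and macrophage genes had a median change of 0.01 with and 0.15 without the transplanted tumour. Whether the share of glial cells in these samples contributed to the differences in progenitor genes was not tested.

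**Figure D2:**
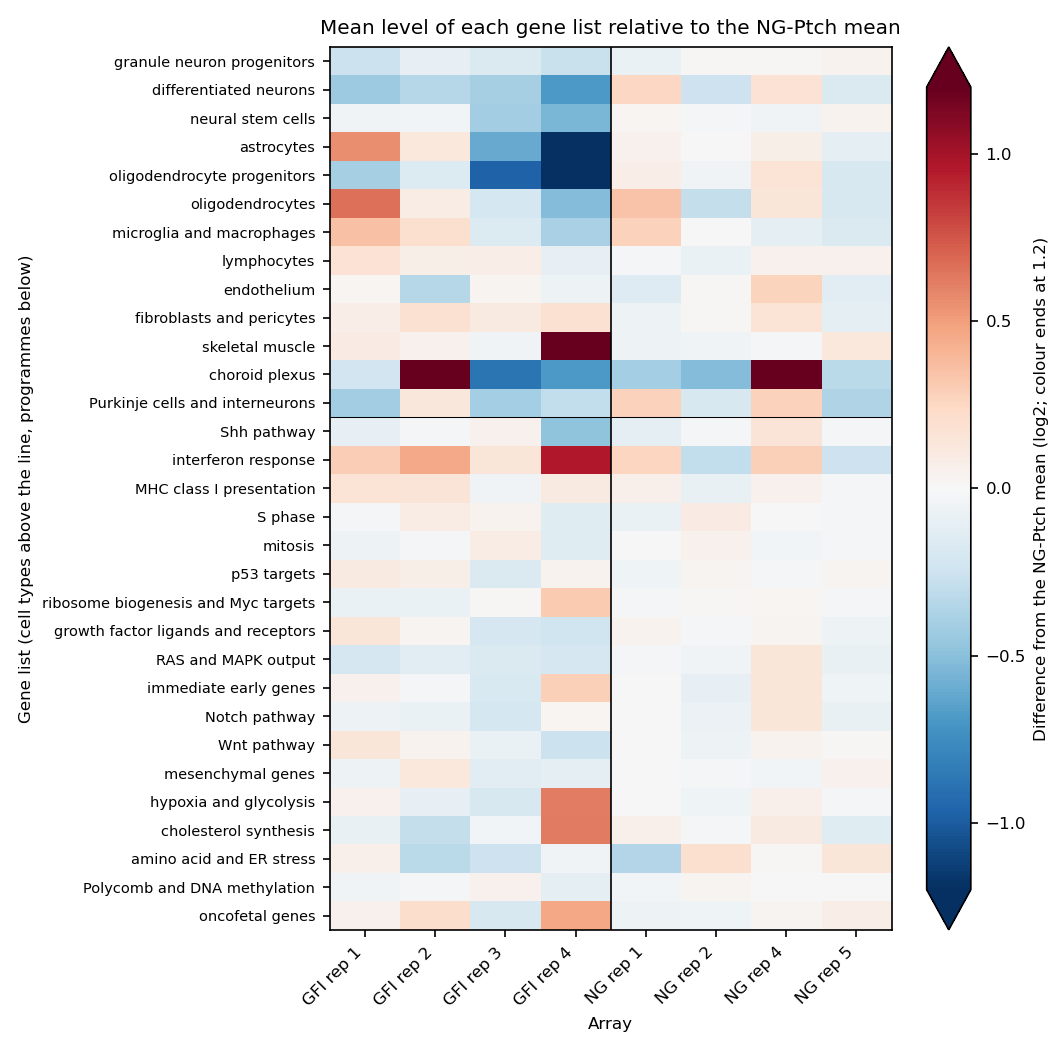
Mean level of each gene list (rows) in each array (columns) minus the NG-Ptch mean of that list, in log2 units, with red above and blue below and colours ending at 1.2; cell type lists are above the thin line and programmes below it. The column of the transplanted tumour (GFI replicate 4) holds the strongest colours, with skeletal muscle at 9.63 against 7.12 to 7.30 in NG-Ptch, and choroid plexus genes are high in 1 array of either group.

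Interferon-stimulated genes had higher levels in GFI-Ptch, most of all in the transplanted tumour. These genes are switched on when type I interferon binds its receptor, and many carry a short response element in their promoters. Of 23 measured members, 22 had a change above 0 with all 4 GFI-Ptch tumours and 23 without the transplanted one, with medians of 0.35 and 0.23. An unadjusted p under 0.05 with a higher value was found for 13 (3.6% of all genes) and for 10 (7.24% of all genes), and none was called over all genes. Only Rsad2 and Zbp1 were above NG-Ptch without overlap, where 2.05% of all genes were. Leaving out the transplanted tumour it was again 2 of 23, where 8.69% of all genes were, so that share is at the background.

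That response element was searched as 2 copies of GAAA with any 2 bases between them, on both strands, in RefSeq promoter windows of 250 bases before to 50 after the start (GRCm38.p6). It was found in 9 of the 15 measured members that had a window, and in 3.99% of all 27025 genes with a window (3.44% of all 32851 windows). Oasl2, whose difference of 0.95 was larger than the 0.74 of Rsad2, had a window without the element. The stretches around it are shown for 3 genes with large differences, read 5′ to 3′ on the gene's strand with the element in capitals, here as its reverse complement; they lie before the start, at chr19:34640755-34640843 (+) for Ifit1, chr19:34583343-34583446 (+) for Ifit3 and chr12:26456533-26456602 (-) for Rsad2.
Ifit1: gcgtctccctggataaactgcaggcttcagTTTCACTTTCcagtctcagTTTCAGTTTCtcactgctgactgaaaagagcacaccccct
Ifit3: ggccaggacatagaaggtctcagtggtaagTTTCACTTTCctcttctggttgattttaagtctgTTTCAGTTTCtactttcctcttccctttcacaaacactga
Rsad2: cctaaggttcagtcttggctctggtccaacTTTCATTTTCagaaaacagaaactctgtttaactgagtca
A match describes the letters and does not show binding.

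Rsad2, an antiviral radical-SAM enzyme, was at 7.58, 7.63, 7.46 and 8.87 in GFI-Ptch and 7.30, 6.87, 7.34 and 7.09 in NG-Ptch, differences of 0.74 with and 0.41 without the transplanted tumour. Ifit1, an RNA-binding antiviral protein with the element present in 2 copies above, was at 7.49, 7.78, 7.37 and 9.42 in GFI-Ptch and 7.25, 6.25, 7.56 and 6.29 in NG-Ptch, differences of 1.18 and 0.71. NG-Ptch thus held a low pair, replicates 2 and 5, and a higher pair, replicates 1 and 4, that reached the primary GFI-Ptch tumours. Ifit3, a related gene with near-identical copies whose signals may be shared, was at 9.06, 9.55, 8.24 and 9.32 in GFI-Ptch and 9.01, 7.204, 8.59 and 6.96 in NG-Ptch, with the same pairs.

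Usp18, which removes Isg15 from proteins and damps the receptor, was at 8.15, 8.35, 7.85 and 10.44 in GFI-Ptch and 7.87, 6.75, 8.58 and 6.93 in NG-Ptch, differences of 1.17 and 0.58. Oasl2, a member of the oligoadenylate synthetase family, was at 8.27, 8.86, 8.26 and 9.91 in GFI-Ptch and 8.29, 7.33, 8.42 and 7.47 in NG-Ptch. Zbp1, a sensor of nucleic acids, was at 7.59, 7.76, 7.60 and 7.75 in GFI-Ptch and 7.47, 7.26, 7.56 and 7.37 in NG-Ptch, a small difference of 0.26 with and 0.24 without the transplanted tumour without overlap. Rnf213, a ubiquitin ligase induced by interferon, had no overlap either, and both of its probe sets were higher, by 0.80 and 0.85.

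The mean over the 23 interferon genes was 7.73, 7.89, 7.57 and 8.39 in GFI-Ptch and 7.69, 7.14, 7.71 and 7.18 in NG-Ptch. The primary GFI-Ptch tumours overlapped with NG-Ptch replicates 1 and 4 and were above replicates 2 and 5. Genes of class I antigen presentation, many of which interferon also induces, had a median change of 0.11, and none separated all 8 tumours. Microglia and macrophage means were 9.76, 9.60, 9.25 and 9.03 in GFI-Ptch and 9.69, 9.42, 9.31 and 9.24 in NG-Ptch, so the transplanted tumour had the highest interferon and the lowest microglial mean. Whether immune cells contributed to the interferon values was not tested.

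**Figure D3:**
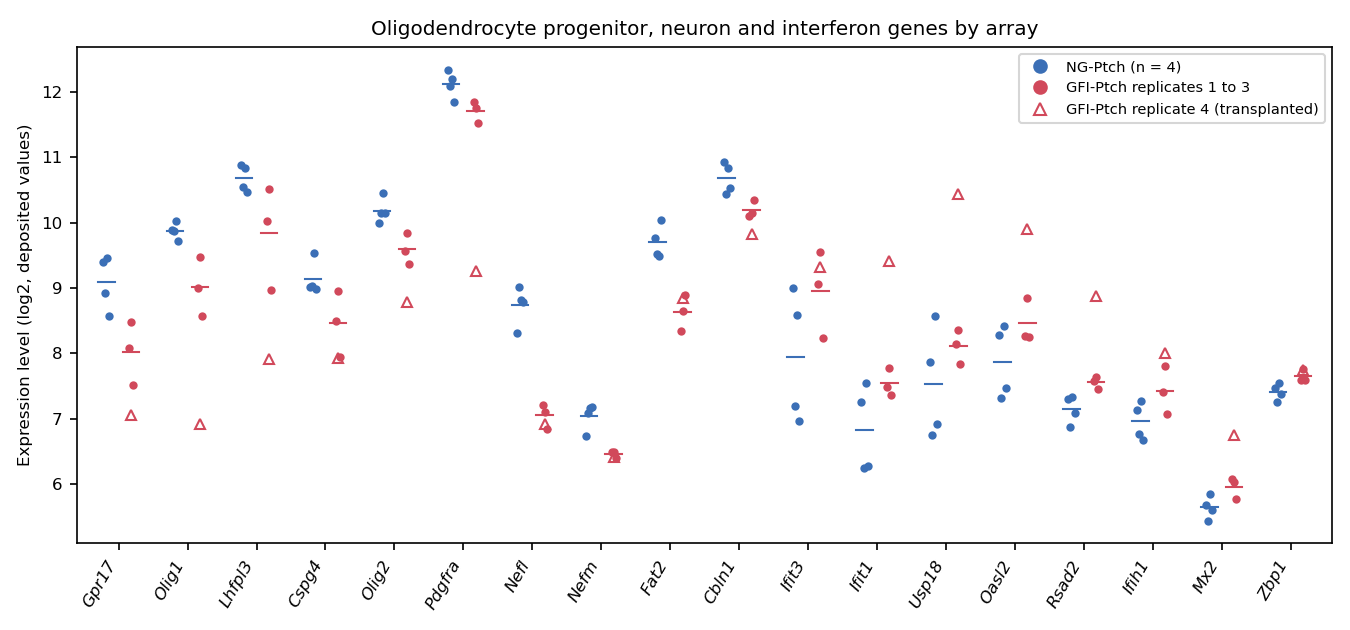
Deposited log2 levels (vertical axis) of 6 oligodendrocyte progenitor genes, 4 neuron genes and 8 interferon genes, with NG-Ptch in blue, primary GFI-Ptch tumours as red circles, the transplanted tumour as an open triangle, and short lines at the means of NG-Ptch and of GFI-Ptch replicates 1 to 3. Progenitor and neuron genes such as Gpr17 and Nefl sit lower in GFI-Ptch, while interferon genes such as Ifit1 show 2 levels in NG-Ptch (6.25 and 6.29 against 7.26 and 7.56).

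Of 14 measured members of the Shh pathway, Gas1, a co-receptor that presents Shh to Ptch1, was the only one apart (4.86% of all genes with and 15.5% without the transplanted tumour), at 9.63, 9.46, 9.46 and 9.67 in GFI-Ptch and 9.95, 9.82, 10.18 and 9.80 in NG-Ptch, a difference of -0.38 (SE 0.12) with and -0.42 (SE 0.12) without the transplanted tumour. Gli1, the target and effector used as a readout of the pathway, was at 10.45, 10.43, 10.60 and 9.76 in GFI-Ptch and 10.38, 10.48, 10.50 and 10.42 in NG-Ptch. Its change of -0.13 became 0.05 without the transplanted tumour. Hhip, a ligand-binding antagonist that Shh signalling induces, was at 9.84, 10.13, 10.13 and 8.71 in GFI-Ptch and 9.61, 10.59, 9.98 and 10.38 in NG-Ptch, and Ptch1 at 11.22, 11.59, 11.78 and 10.62 in GFI-Ptch and 11.21, 11.49, 12.14 and 11.39 in NG-Ptch. The transplanted tumour was the lowest for Gli1, Hhip and Ptch1, and the primary GFI-Ptch tumours overlapped with NG-Ptch for each. Smo, the receptor that Ptch1 restrains, and Mycn, a target that sustains proliferation, had changes of -0.07 and -0.18 with and -0.06 and -0.07 without the transplanted tumour.

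Output genes of the RAS and MAPK cascade, which growth factor receptors activate, leaned lower. Of 14 members 11 had a change below 0 in either fit, with a median of -0.17, and 3 lay below NG-Ptch without overlap with the transplanted tumour (2.8% of all genes) and without it (6.79%): Etv1, Etv5 and Spry4. Etv5, an ETS factor induced by FGF signalling, was at 9.95, 9.95, 10.01 and 9.46 in GFI-Ptch and 10.12, 10.20, 10.47 and 10.61 in NG-Ptch, and Etv1, of the same family, at 9.60, 10.11, 10.08 and 9.25 in GFI-Ptch and 10.30, 10.42, 10.46 and 10.14 in NG-Ptch. Both had a second probe set that was lower as well, with differences of -0.57 for Etv1 and -0.35 for Etv5. Spry4, a feedback inhibitor, differed by -0.17 only. The mean over the 14 genes was 9.21, 9.28, 9.24 and 9.21 in GFI-Ptch and 9.39, 9.36, 9.55 and 9.32 in NG-Ptch, with no overlap. The list median, however, was -0.02 when the gender label (F, M or ND) was in the model.

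Among 26 growth factor ligands and receptors, Fgf13 and Pdgfra lay below NG-Ptch without overlap with the transplanted tumour (2.8% of all genes) and without it (6.79%). Fgf13, a non-secreted member of its family that binds sodium channels, was at 8.07, 8.28, 7.96 and 7.004 in GFI-Ptch and 8.53, 8.70, 8.42 and 8.67 in NG-Ptch, a difference of -0.75 (SE 0.22) with and -0.48 (SE 0.15) without the transplanted tumour. Egfr, the epidermal growth factor receptor, was at 10.98, 10.97, 10.75 and 10.01 in GFI-Ptch and 10.91, 11.39, 10.96 and 11.56 in NG-Ptch, and Fgfr1 differed by 0.12. The list's median was -0.02. Fgf1, a ligand of all FGF receptors, and the neurotrophin receptor gene Ntrk3 lay above NG-Ptch without overlap when the transplanted tumour was left out, a share of the 26 no higher than the 8.69% of all genes. Fgf1 was at 8.30, 7.93, 7.78 and 7.44 in GFI-Ptch and 7.71, 7.61, 7.70 and 7.73 in NG-Ptch, so the transplanted tumour was the lowest of all 8. Of 13 Wnt pathway genes Lgr5, a receptor for R-spondins, was the only one apart, a share near the 4.86% of all genes with and below the 15.5% without the transplanted tumour, at 9.27, 9.13, 9.51 and 8.48 in GFI-Ptch and 9.82, 9.93, 9.59 and 9.76 in NG-Ptch, a difference of -0.67 (SE 0.17) with and -0.47 (SE 0.13) without the transplanted tumour.

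Vessel and stroma genes gave small differences. Collagen genes Col1a1, Col1a2 and Col3a1 of fibroblasts lay above NG-Ptch without overlap in the 3 primary GFI-Ptch tumours, by 0.22, 0.30 and 0.24, where 8.69% of all genes did. The transplanted tumour lay within the NG-Ptch range for Col1a1, at 8.69. The median change of 12 endothelial genes was -0.07 and that of 10 lymphocyte genes 0.07, and the highest lymphocyte gene level in any of the 8 tumours was 7.73, for Cd3e in GFI-Ptch replicate 1.

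Of 19 S phase and 19 mitosis genes none separated all 8 tumours in either direction, with medians of -0.0027 and -0.04. The medians were 0.03 and 0.01 without the transplanted tumour. The helicase subunit gene Mcm7 and the polymerase gene Pole then lay above NG-Ptch (8.69% of all genes) and the replication factor gene Gins2 below (6.79%), Pole at 10.83, 10.96 and 10.92 against 10.59, 10.81, 10.68 and 10.64. Mki67, the common proliferation marker, was at 12.37, 12.44, 12.57 and 12.02 in GFI-Ptch and 12.41, 12.51, 12.32 and 12.48 in NG-Ptch, and Pcna, the replication clamp, at 12.54 to 12.65 in the primary GFI-Ptch and 12.46 to 12.76 in NG-Ptch tumours. Targets of p53 had a median of 0.01 with and 0.05 without the transplanted tumour, and Polycomb and DNA methylation genes -0.01 and 0.01. In the same order, the medians were -0.10 and -0.11 for the Notch pathway, 0.06 and -0.01 for immediate early genes, -0.02 and -0.03 for mesenchymal genes, 0.05 and -0.04 for ribosome biogenesis, -0.14 and -0.15 for amino acid and ER stress and 0.04 and 0.05 for oncofetal genes. None of these lists had a member apart between all 4 GFI-Ptch and the NG-Ptch tumours, and the immediate early, ribosome and Polycomb medians had opposite signs with and without the transplanted tumour.

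The transplanted tumour carried genes of embryonic skeletal muscle. The mean of 20 muscle genes was 9.63 in it, against 7.13 to 7.28 in the primary GFI-Ptch tumours and 7.12 to 7.30 in NG-Ptch. Myh3, the embryonic myosin heavy chain, was at 10.77 against 5.87 to 6.07 in the other 7 tumours, and Actc1, an actin of heart and developing muscle, at 12.72 against 8.14 to 8.46. Myog, the transcription factor of muscle differentiation, was at 9.67 against 6.58 to 6.90, and its relative Myf5, at 5.39, was the lowest of all 8. Myod1 was at 9.86, close to 9.89 in NG-Ptch replicate 5. The list's median change of 0.65 became 0.07 without this tumour, so the muscle genes among the largest increases rest on it.

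The transplanted tumour had the highest level of the 8 in 6 of 12 hypoxia and glycolysis genes and in 10 of 11 cholesterol synthesis genes. It also did in 12 of 16 ribosome biogenesis genes and 5 of 10 immediate early genes, but in 0 of 14 astrocyte genes. The share of all genes highest in this tumour was not counted, so these counts have no background beside them. Egln3, a prolyl hydroxylase induced by hypoxia-inducible factors, was at 10.91 against 7.30 to 7.98 in the other 7 tumours, and Ldha, of anaerobic glycolysis, at 13.14 against 12.29 to 12.70. The median over 12 hypoxia and glycolysis genes was 0.53 above the NG-Ptch mean in this tumour. In the comparison of the groups only Pfkp, a phosphofructokinase, was apart (4.86% of all genes). It was lower, at 8.92, 8.39, 8.03 and 8.35 in GFI-Ptch and 9.17, 9.25, 9.18 and 8.94 in NG-Ptch. Without the transplanted tumour Pfkp and Bnip3 lay below (6.79% of all genes), Bnip3 at 9.05, 9.20 and 9.21 against 9.57, 9.54, 9.70 and 9.53. The median over 11 cholesterol synthesis genes was 0.59 above NG-Ptch in the transplanted tumour and -0.15 in the change without it. Only Mvd of these 11, which makes isopentenyl diphosphate, lay below NG-Ptch without overlap in the primary tumours (6.79% of all genes). It was at 8.99, 8.94 and 8.91 against 9.28, 9.37, 9.52 and 9.36. Levels of astrocyte genes were low in the transplanted tumour, such as Slc4a4, a bicarbonate transporter, at 7.19 against 9.61 to 10.80, and Slc6a11, a glial GABA transporter, at 8.21 against 11.25 or more.

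Single tumours also stood apart from the other 7 by at least 1. In the transplanted tumour 193 genes did so upward and 110 downward, in GFI-Ptch replicate 1 19 and 14, in replicate 3 9 and 8, and in replicate 2 1 and 2. In NG-Ptch the counts were 0 and 0, 1 and 0, 0 and 3, and 3 and 0 for replicates 1, 2, 4 and 5. The transplanted tumour thus had the highest counts, and GFI-Ptch replicate 2 had counts like those of NG-Ptch tumours.

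GFI-Ptch replicate 1 had high levels of granule proteases and of other immune genes. Mcpt1 and Mcpt2, proteases known from mast cells, were at 8.72 and 9.05 there, against 5.22 to 5.72 and 5.12 to 6.19 in the other tumours, and carboxypeptidase Cpa3 of the same granules at 8.33 against 5.65 to 5.99. Mcpt1 and Mcpt2 are neighbours on chromosome 14. Retnla, a secreted protein of alternatively activated macrophages, and Rnase2a, an eosinophil-associated ribonuclease, were at 8.47 and 9.14 against 5.37 to 5.54 and 5.13 to 5.46. The same tumour had the highest Ccl11, the eosinophil chemokine, at 9.53. Peg10 and Sgce, neighbours on chromosome 6 that are expressed from the paternal allele, were low in it, at 7.58 against 10.56 to 11.38 and at 8.66 against 11.02 to 11.66. Olig3, a transcription factor of the hindbrain, was at 6.30 against 8.51 to 10.47.

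GFI-Ptch replicate 3, the tumour with Y-linked transcripts, had low Otx2, a homeobox factor of the developing brain and choroid plexus, at 7.65 against 9.80 to 11.52. It also had the lowest Ndn and Igf2, imprinted genes expressed from the paternal allele, at 6.86 against 8.70 to 10.15 and at 8.06 against 9.23 to 11.47, while Zim1, an imprinted zinc finger gene expressed from the maternal allele, was highest there, at 10.73 against 7.96 to 9.30. Choroid plexus genes were high in 1 tumour of either group. Ttr, the thyroid hormone carrier made by choroid plexus, was at 12.52 in GFI-Ptch replicate 2 and 12.14 in NG-Ptch replicate 4, against 6.30 to 6.69 in the other 6, and the potassium channel gene Kcnj13 at 9.55 and 9.65 against 6.42 to 6.56. These genes therefore did not separate the groups.

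**Figure D4:**
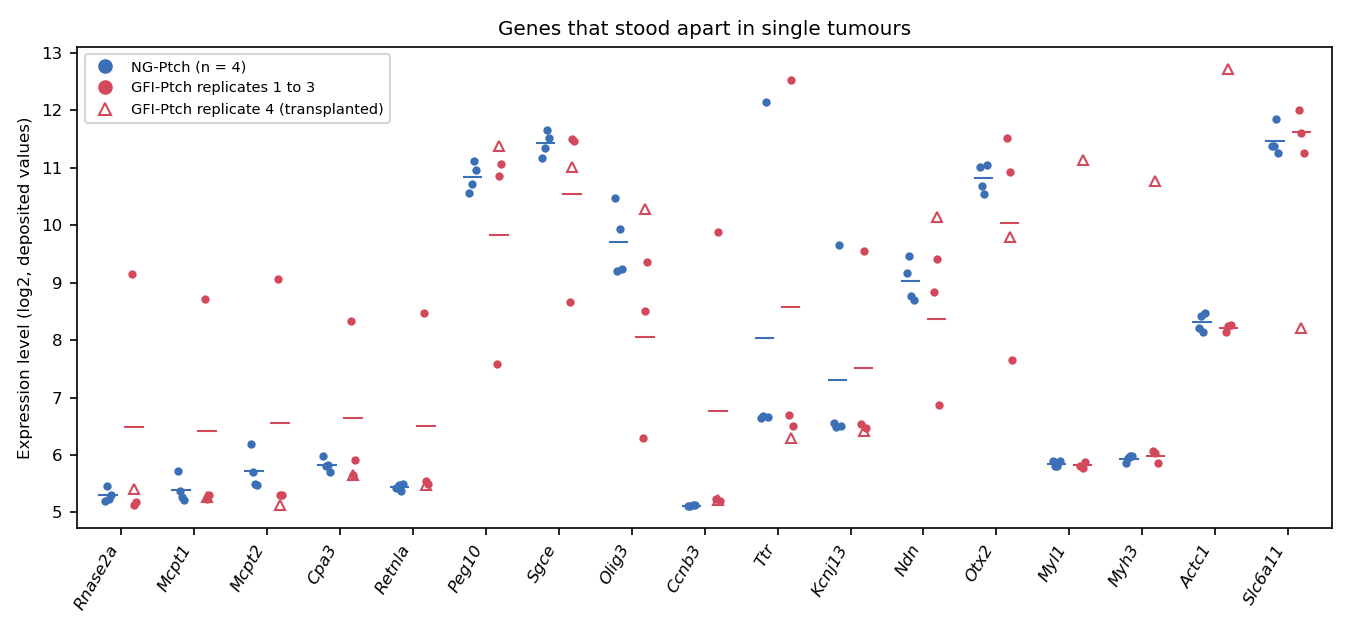
Deposited log2 levels (vertical axis) of 17 genes that stood apart in 1 tumour, or in 1 tumour of either group, with NG-Ptch in blue, primary GFI-Ptch tumours as red circles, the transplanted tumour as an open triangle, and short lines at the means of NG-Ptch and of GFI-Ptch replicates 1 to 3. Mcpt1, Mcpt2 and Cpa3 stand out in 1 primary tumour (Mcpt1 at 8.72), Ttr in 1 tumour of either group (12.52 and 12.14), and muscle genes in the transplanted tumour (Myh3 at 10.77).

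Whole chromosomes were described as the median difference from NG-Ptch over the brighter genes of a chromosome, and each NG-Ptch array was set against the mean of the other 3. Chromosome 14 had a median of 0.21 over 401 genes in GFI-Ptch replicate 1, where the other chromosomes lay between -0.08 and -0.0049, and 0.11 in replicate 2, where they lay between -0.10 and -0.01. It was -0.05 in replicate 3. Chromosome 6 had a median of 0.13 over 562 genes in GFI-Ptch replicate 3, where the other chromosomes lay between -0.06 and 0.01. In NG-Ptch replicate 4 it had 0.15, but the other chromosomes there ran from -0.11, for chromosome 13, to 0.10. In the transplanted tumour chromosomes 18, 17, X and 9 had medians of 0.33, 0.30, 0.27 and 0.16, chromosome 13 had -0.21, and chromosomes 2 and 14 had 0.10 and 0.08, while the other 13 lay between -0.06 and 0.02. Over all genes, dim ones included, the medians were smaller, such as 0.17 for chromosome 14 in GFI-Ptch replicate 1. No test was made on these medians.

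**Figure D5:**
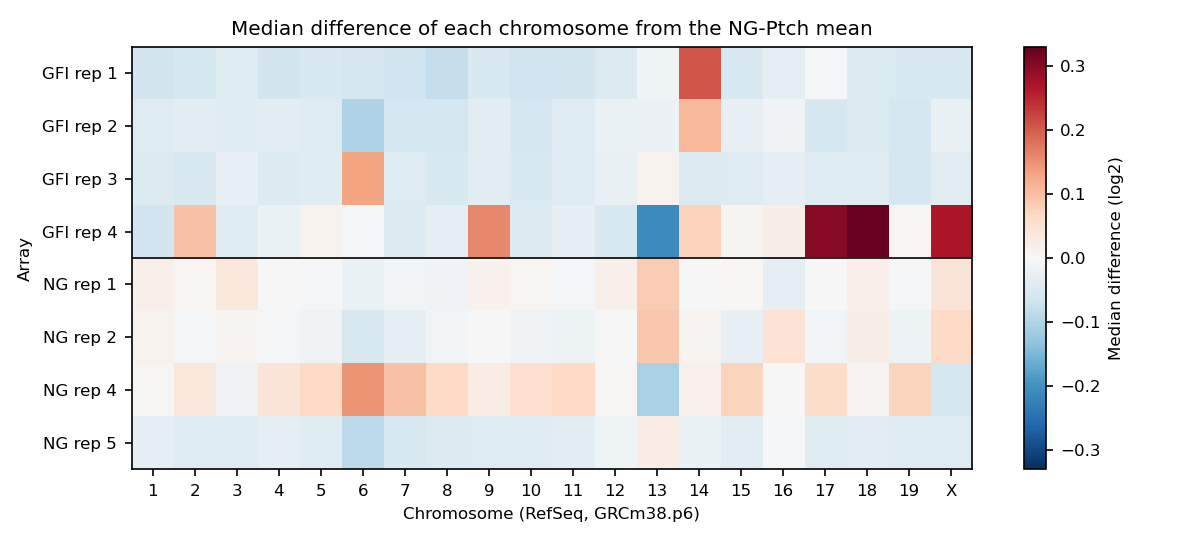
Median log2 difference from the NG-Ptch mean (colour) over the brighter genes of each chromosome (columns, RefSeq GRCm38.p6) in each array (rows), with red above and blue below. Chromosome 14 stands out in GFI replicates 1 and 2 (0.21 and 0.11), chromosome 6 in GFI replicate 3 (0.13), and several chromosomes, 18 at 0.33 among them, in the transplanted tumour (GFI replicate 4). In NG replicate 4 chromosome 6 is highest (0.15), with the other chromosomes between -0.11 and 0.10.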

How the data were processed

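The deposited values were log2 expression levels for 35556 probe sets on 18 arrays, made by the authors with Partek 6.6 per the submitters' processing notes. The settings, background correction and normalization are not given in the sources used here, and array medians ran from 7.736 to 7.868. The log2 base was read from the values, which reach 14.32. The number of arrays limits the precision, and no depth applies. In GEO's platform annotation 21789 probe sets had 1 gene symbol, 1621 several and 12146 none. Each of 19938 genes was represented by its brightest probe set on average (999 had several).

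Group means of all 5 groups were fitted over 18 arrays, and over 17 without the transplanted tumour, with limma 3.58.1 in R 4.3.3 (lmFit, contrasts.fit, eBayes; 2-sided). P-values were Benjamini-Hochberg adjusted over all genes, with a threshold of 0.05. Tested on simulated data with 19938 genes, the fits recovered 92% (18 arrays) and 95% (17 arrays) of changes of 1, and 99% and 100% of changes of 2. Unchanged genes gave 11 and 7 false calls. The simulation gave all groups the same spread in each gene and shifted every GFI-Ptch array alike. The deposited GFI-Ptch arrays were more uneven than that, so these shares do not tell how many real changes were missed. Changes are GFI-Ptch minus NG-Ptch with the standard error (SE).

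Named genes were the 10 largest increases and decreases without overlap between groups, with and without the transplanted tumour, leaving out sex-linked genes, predicted loci, receptors of smell and taste, and antigen receptor segments; called genes; those with the lowest adjusted p; up to 5 members of each of 31 lists (455 genes, 427 measured) with the largest change; and a fixed set of 11 (Atoh1, Egfr, Fgfr1, Gfap, Gli1, Hhip, Mycn, Olig2, Ptch1, Smo, Sox2). Other list members, and the 5 largest genes of single arrays, are named as examples chosen after their values were seen. Genes standing out in 1 array lay at least 1 from the other 7. Members and lists were chosen with earlier results of these data known. Promoters and chromosomes came from RefSeq (GRCm38.p6; 19856 genes had a chromosome). Brighter genes had a mean above the median of all values (7.803). Alternatives were other scalings, a filter on dim genes, means of probe sets, other variance models, gender and Y-linked terms, a replicate block and leaving out arrays.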

Additional observations from a re-analysis of the deposited data

Results flagged for a closer look

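Levels were screened for 1 tumour lying far from the other 3 of its group (Dixon's ratio of gap to range, 95% limit). The 202 sets of 4 were 62 list means and 140 levels of named genes. Chance alone passes about 1 in 20 only in sets not chosen by their values. Many of these genes were named for large changes in the same arrays, so that rate does not apply to them. The limit was passed by 19, made up of 3 list means and 16 gene levels, and 12 of the 19 belonged to the transplanted tumour.

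In the transplanted tumour the skeletal muscle list was at 9.63 (7.13 to 7.28 in the other GFI-Ptch tumours), Myl1 at 11.14, Myh3 at 10.77, Mymk at 10.30, Tmem182 at 10.10, Ttn at 9.78 and the monocarboxylate transporter gene Slc5a12 at 9.66. Egln3 was at 10.91 and Rsad2 at 8.87, both above the others, and Etv5 at 9.46, Pdgfra at 9.26 and Lrrtm3 at 6.47, all below. Ccnb3 was at 9.87 in GFI-Ptch replicate 2, against 5.20 to 5.23. In NG-Ptch the choroid plexus list was at 9.03 and Cspg4 at 9.53 in replicate 4, Mgat5b at 10.28 and the skeletal muscle list at 7.30 in replicate 5, Stard10 at 9.43 in replicate 1 and Mymk at 7.59 in replicate 2.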

How the results depend on the processing

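With all 4 GFI-Ptch tumours the count of called genes was 0 under quantile normalization, means of probe sets, a trended robust variance, the Y-linked level in the model and the replicate block, where 1615 to 1985 genes had an unadjusted p under 0.05 by limma. It was 1 with only the GFI-Ptch and NG-Ptch arrays in the fit, 12 after median centring, 4 after a filter on dim genes, 2 with the gender label in the model and 180 (58 higher, 122 lower) with array weights, which gave the transplanted tumour a weight of 0.175. Leaving out 1 array gave 0 to 8, with 1255 or more genes at an unadjusted p under 0.05. Without the transplanted tumour the count of 5 stayed within 1.5 times under quantile normalization, means of probe sets, trended variance and gender label. The genes were not all the same. Of the original 5, 4 were called under quantile normalization, 4 under trended variance and 1 with the gender label. The count was 0 with only the arrays of both groups (3152 genes at an unadjusted p under 0.05), 44 after median centring and 10 after the dim filter. It was 2 with the Y-linked level, 631 with array weights (287 higher, 344 lower), and 1 to 19 when 1 more array was left out. The cause was not tested, except that fewer genes or arrays entered the filtered and leave-one-out fits.

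Same-numbered tumours had correlations of deviations of 0.04, -0.16 and 0.08 for numbers 1, 2 and 4. These lay within the range of tumours with different numbers, -0.163 to 0.170. They gave no sign of pairing, but so few pairs cannot exclude it. With the replicate block limma called 0 genes in either fit, and 1692 and 3882 genes had an unadjusted p under 0.05.

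Genes with GFI-Ptch above NG-Ptch without overlap numbered 235, 160 and 164 under quantile normalization, median centring and the dim filter, against 409, and 523 to 1733 with 1 array left out. Genes below numbered 839 after median centring, against 559, and 725 to 1354 with 1 array left out. Fewer arrays overlap less by construction.

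The sign turned for Gli1 (0.0562 with the gender label, 0.0103 with array weights, and -0.23 to 0.0498 when 1 array was left out), Ptch1 (0.0530 with the gender label, 0.0726 with weights), Smo (0.0636 with the gender label, 0.0108 without GFI-Ptch replicate 2, 0.0470 without NG-Ptch replicate 4), Egln3 (-0.0279 to 1.17 with 1 array left out) and Myl1 (-0.0301 to 1.76), the last 2 and Gli1 without GFI-Ptch replicate 4. With the gender label the list medians were -0.0032 for granule neuron progenitors, -0.68 for differentiated neurons, -0.61 for Purkinje cells and interneurons and -0.02 for RAS and MAPK output, and without GFI-Ptch replicate 2 that of granule neuron progenitors was -0.24. In the other 429 combinations of a list and an alternative, the list median moved by no more than the spread between replicates. That spread was the larger SD of the list mean in either group, and the GFI-Ptch SD included the transplanted tumour. Lists shifted by that tumour could thus hardly count as moved. Without it the skeletal muscle median went from 0.65 to 0.07 and that of oligodendrocyte progenitors from -0.81 to -0.49.

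Of 35556 probe sets 12146 had no symbol and were not analysed here. Levels near the lowest deposited value, 4.219, had little room to be lower in the other group. Group and age cannot be told apart where labels give none. Of the 4 NG-Ptch gender labels 3 are ND, although Xist and Y-linked levels in these tumours read as female. GFI-Ptch replicate 3 alone had Y-linked transcripts, so gender was not balanced between the groups. The fits with the gender label used the labels as given, with ND as a level of its own that no GFI-Ptch tumour had. They are therefore not an adjustment for sex.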

Other observations

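Genes of Purkinje cells varied within NG-Ptch. Calb1, the calcium buffer of Purkinje cells, was at 5.80, 7.77, 6.55 and 6.19 in GFI-Ptch and 8.90, 7.33, 8.58 and 6.11 in NG-Ptch, and Car8, a Purkinje cell protein that binds an inositol trisphosphate receptor, at 7.33, 8.72, 7.53 and 7.09 in GFI-Ptch and 9.33, 8.45, 9.33 and 7.64 in NG-Ptch. NG-Ptch replicates 1 and 4, which were high in Gabra6 and Cbln3, were high in both. Pvalb, a calcium buffer of interneurons and of fast muscle, was at 11.56 in the transplanted tumour, against 8.05 to 9.55 in the other 7.

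Prm1, named for the sperm protamine, was at 8.80 in NG-Ptch replicate 4 and at 10.69 to 11.54 elsewhere, and the zinc finger gene Zfp182 at 6.14 against 7.94 to 8.41. Hmgcll1, which encodes a lyase of ketone body synthesis, was at 11.63, 7.41 and 11.29 in the primary GFI-Ptch tumours, 11.42 in the transplanted tumour and 10.52, 9.02, 9.08 and 8.86 in NG-Ptch. All GFI-Ptch tumours but replicate 2 were above all NG-Ptch tumours for that gene, which was looked at because replicate 2 was the lowest of the 8.

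The stress list of the amino acid response and unfolded protein response split inside NG-Ptch as well, with a mean of 10.07, 10.61, 10.44 and 10.57 there and 10.48, 10.10 and 10.17 in the primary GFI-Ptch tumours and 10.38 in the transplanted one. Chac1, which degrades glutathione, was at 9.26, 10.52, 10.16 and 10.57 in NG-Ptch and 10.03, 9.10 and 9.33 in the primary GFI-Ptch tumours, so NG-Ptch replicate 1 was the low one of its group.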
